A study of Mus musculus with 37 samples.

Results

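A set of 10 immediate early genes was followed in uterine natural killer (uNK) cells of the mouse, namely the AP-1 genes Fos, Fosb, Jun, Junb and Jund, the zinc finger genes Egr1 and Egr2, and the nuclear receptor genes Nr4a1, Nr4a2 and Nr4a3. They were chosen by name as members of these families, and are 10 of the 53700 genes counted in 37 libraries. The rule uses no measured value, although earlier results of these data were known when the set was chosen.

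Immediate early genes are transcribed within minutes of a signal, from transcription factors that the cell already holds. Proteins of the Fos and Jun families pair to form AP-1, EGR1 and EGR2 bind GC-rich sites, and NR4A1, NR4A2 and NR4A3 are nuclear receptors that act without a known natural ligand. In lymphocytes they rise after stimulation through antigen receptors or activating receptors, and they are also known to rise while a tissue is dissociated and its cells are sorted, so the spread between libraries is given here with every level.

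The uNK cells were sorted from uteri of pregnant mice, collected between gestation days 9.5 and 10.5. Natural killer cells are said to be educated when they carry an inhibitory receptor for self major histocompatibility molecules, here NKG2A or Ly49C/I. In WT mice of strain C57BL6 there were 9 libraries of uneducated cells, which lack both receptors on their surface, 9 of NKG2A+ cells that lack Ly49C/I, and 6 of Ly49C/I+ cells that lack NKG2A. In mice labelled NKG2A KO C57BL6 there were 8 libraries of uneducated cells and 5 of Ly49C/I+ cells. Cells with both receptors were not collected, all cells had gone through enzymatic and mechanical dissociation, and the study's methods give an age for mice used for other organs but none for the pregnant mice. The labels do not say whether libraries of a group came from separate mice, nor whether libraries of equal number came from the same mouse, so p-values measure the spread between these libraries, which may be technical in part.

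Libraries held from 13287163 to 18875033 reads on genes (median 17273311), and between 13982 and 17859 genes had a count. Levels are given in CPM, a count of reads scaled to one common library total, with library sizes adjusted by the TMM method. The sort left its mark on the transcripts in most respects. Klrc1, which encodes NKG2A, lay between 494 and 759 CPM in the WT NKG2A+ libraries and at 13.8 CPM or less in every other library, so that it cannot check the KO genotype in cells sorted for lack of NKG2A. Klra9, which encodes Ly49I, had a median of 678 CPM in WT and 966 CPM in KO Ly49C/I+ cells, and of 64.5 to 102 CPM in the other groups. Klra3, which encodes Ly49C, did not follow the sort, with a median of 58.3 CPM in WT Ly49C/I+ cells and 136 CPM in WT uneducated cells. The 8 NK marker genes summed to between 15763 and 23099 CPM in every library. Markers of B cells summed to at most 4.12 CPM, with the defining marker Pax5 at 0 in all libraries. The 8 macrophage or monocyte genes summed to more, with 261 CPM in WT NKG2A+ library 1 and 374 CPM in WT Ly49C/I+ library 1. The medians of these groups were 70.9 and 83.8 CPM. The 5 neutrophil genes summed to 32.8 and 56.4 CPM in the same 2 libraries. The part of such cells in the levels of the members was not tested.

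The stretch before the start of transcription is shown for the 5 members in which these bases lie outside annotated exons and hold a site of interest, since the genes of this class are known for sites of CREB and of serum response factor close to their start. Each line holds the 150 bases before a RefSeq start in build GRCm38.p6, 5′ to 3′ on the strand of the gene. They lie at chr12:85473740-85473889 on the plus strand for Fos, chr8:84978749-84978898 on the minus strand for Junb, chr10:67537719-67537868 on the plus strand for Egr2, chr15:101266696-101266845 on the plus strand for Nr4a1, and chr2:57124004-57124153 on the minus strand for Nr4a2. The Egr2 and Nr4a1 stretches lie within the annotated span of their own gene, before a start that is not its first base. Capitals mark the core of the cyclic AMP response element (TGACG, or CGTCA on the other strand), the TATA motif TATAAA, and, in Egr2, the CArG box bound by serum response factor.
Fos: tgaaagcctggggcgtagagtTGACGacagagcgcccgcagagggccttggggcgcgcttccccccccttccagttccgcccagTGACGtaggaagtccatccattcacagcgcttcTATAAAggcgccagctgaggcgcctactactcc
Junb: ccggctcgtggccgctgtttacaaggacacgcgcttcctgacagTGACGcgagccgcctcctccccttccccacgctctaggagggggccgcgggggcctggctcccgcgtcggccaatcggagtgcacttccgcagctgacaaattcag
Egr2: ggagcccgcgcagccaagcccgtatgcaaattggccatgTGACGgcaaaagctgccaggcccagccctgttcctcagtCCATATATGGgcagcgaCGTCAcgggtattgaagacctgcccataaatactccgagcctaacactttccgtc
Nr4a1: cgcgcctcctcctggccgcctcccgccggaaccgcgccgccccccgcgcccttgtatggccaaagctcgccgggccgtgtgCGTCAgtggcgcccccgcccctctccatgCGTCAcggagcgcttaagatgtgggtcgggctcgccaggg
Nr4a2: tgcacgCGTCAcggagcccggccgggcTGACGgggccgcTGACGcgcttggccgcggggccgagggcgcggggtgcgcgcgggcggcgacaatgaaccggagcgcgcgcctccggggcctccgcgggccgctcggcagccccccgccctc

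Over the 250 bases before the start, the cyclic AMP response element core TGACG was present, on either strand, in 6 of the 9 members with a window to search (Fos, Fosb, Junb, Nr4a1, Nr4a2 and Nr4a3), against 17.8% of 32851 such windows of all genes. Fos carried it at −129 and −66 and TATAAA at −33, counted from the start. Nr4a1 and Nr4a2 each held 4 copies. The EGR site GCGNGGGCG was found in 3 members (Fosb, Nr4a1 and Nr4a2), against 4.7% of all windows. The full palindrome TGACGTCA, the AP-1 site TGACTCA and the NR4A monomer site AAAGGTCA were found in 0 members, against 1.55%, 4.46% and 1.34% of all windows. Where a gene had several starts its first window was counted. In Egr2 the CArG box lay in 4 of its 5 windows, at −72 in the window shown, but not in the first. These are matches of letters and not measured sites of binding.

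Read per kilobase of exon, the members spanned a wide range of levels. Junb, a Jun protein that is abundant in activated lymphocytes, led with 1682 CPM per kb (SD 430, n = 37 libraries), rank 17 of 9279 genes, followed by Nr4a1 with 348 (SD 82) and Nr4a2 with 235 (SD 46.4). Fos stood at 167 (SD 52.7), Jun at 146 (SD 65.1) and Jund, the Jun gene that is also transcribed in resting cells, at 106 CPM per kb (SD 18.8). Below them were Egr1 with 52.5 (SD 9.7), Nr4a3 with 23.8 (SD 9.83), Fosb with 7.20 (SD 2.34) and Egr2 with 3.59 CPM per kb (SD 2.34). Thus 6 of the 10 lay above 94.0% of all genes ranked, and only Fosb and Egr2 lay below the middle of the ranking. Most neighbours in this order kept their places from library to library: the upper gene was higher in 37 of 37 libraries for 5 of the 9 neighbouring pairs. Nr4a2 exceeded Fos in 32 of 37 libraries, Fos exceeded Jun in 29, Jun exceeded Jund in 30 and Fosb exceeded Egr2 in 35. The order of the means of Fos and Jun differed by group, which was not tested. Mean Fos was above mean Jun in WT uneducated cells (136 against 111 CPM per kb), and also in WT NKG2A+ and KO uneducated cells. In Ly49C/I+ cells mean Fos was below mean Jun, at 150 against 162 in WT and 225 against 234 in KO mice. These gaps were small beside the spread of Jun, with an SD of 31.4% of its mean in WT and 39.8% in KO. Single libraries raised these means of Jun, namely WT library 5 at 844 CPM (group median 460) and KO library 4 at 1210 CPM (group median 615). Junb shares 173 exon bases on the opposite strand with Prdx2, which had up to 3288 reads in a library. Jun shares 232 with the antisense gene Junos, which had at most 66. Jund shares 877 of its 1668 exon bases with the antisense gene Gm11175, which had 0 reads in every library. The sources used here do not say whether counting used the strand. If it did not, reads on the shared bases may have been left out, and the level of Jund may be too low.

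**Figure D1:**
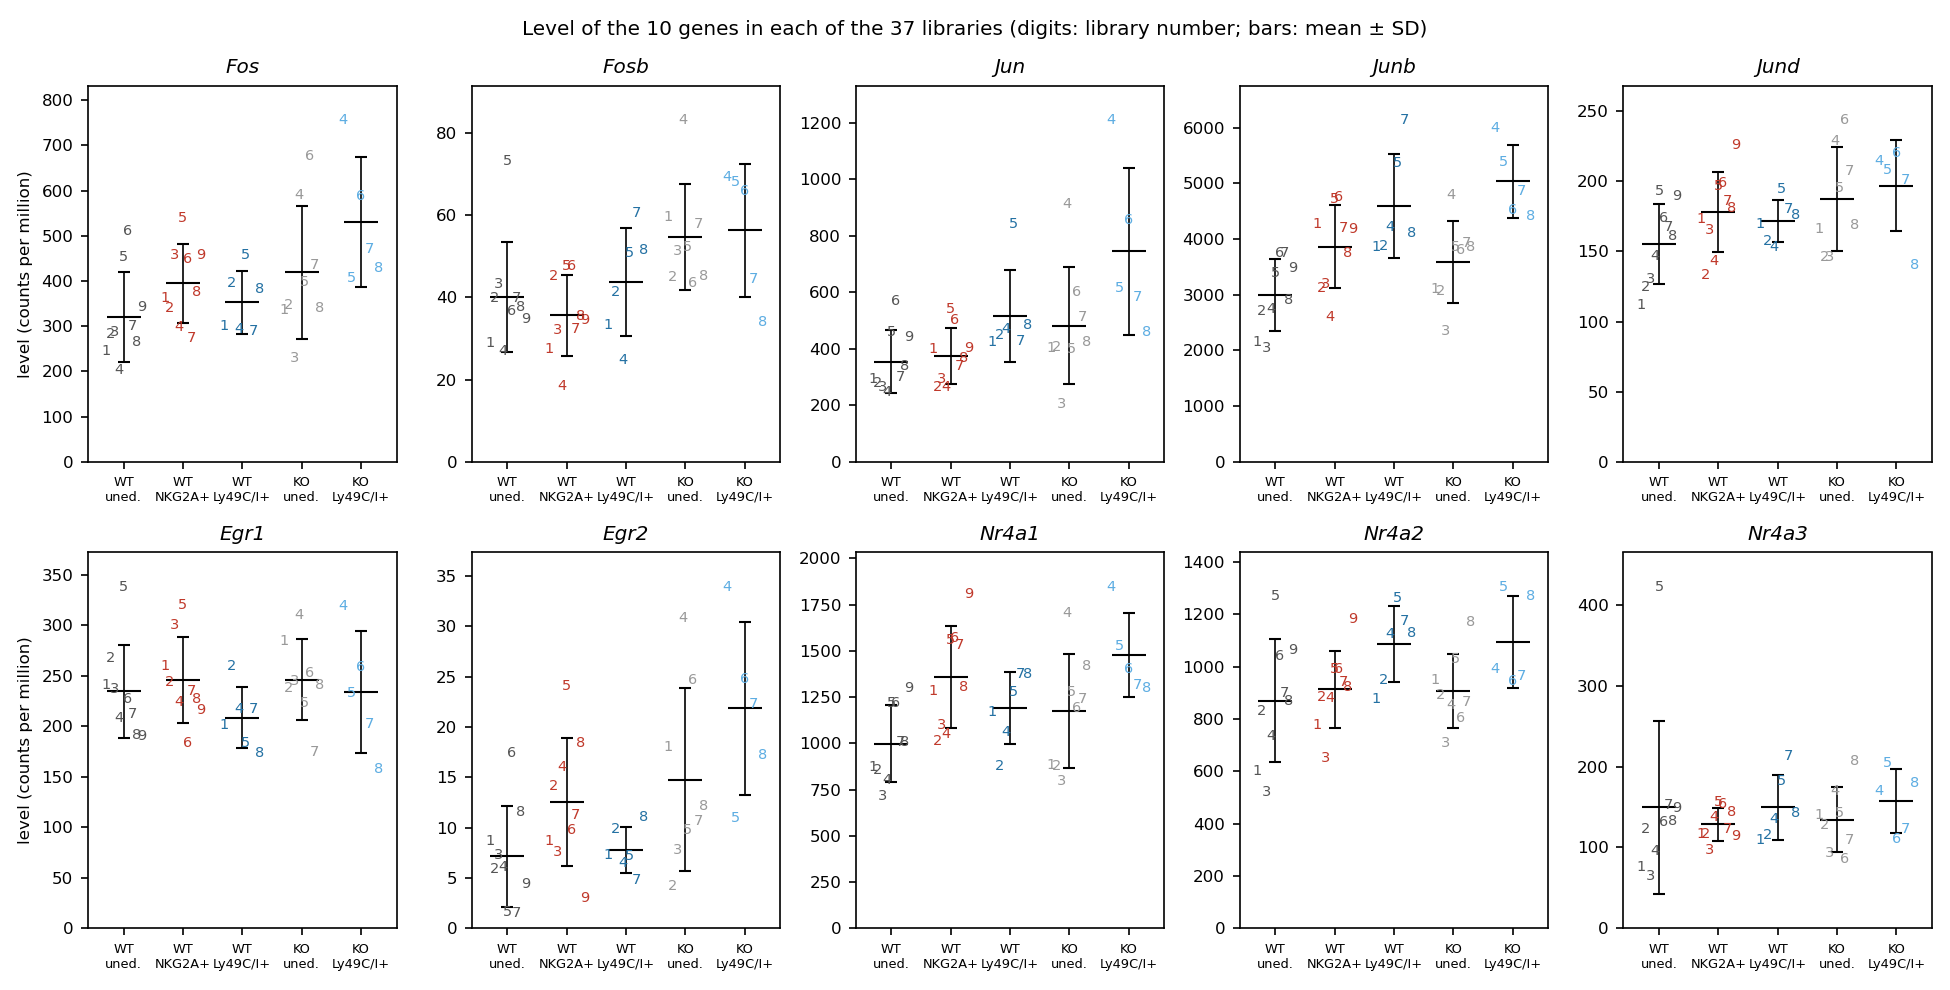
Level of each of the 10 genes in every library, as CPM on an axis that starts at 0, by group (WT uneducated n = 9, WT NKG2A+ n = 9, WT Ly49C/I+ n = 6, NKG2A KO uneducated n = 8, NKG2A KO Ly49C/I+ n = 5). Digits are library numbers, and bars give the group mean ± SD. Junb in WT Ly49C/I+ cells lies above all WT uneducated libraries, and in that comparison the groups overlap for the other 9 genes.

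The first comparison asked which genes differ in NKG2A+ cells from uneducated cells of WT mice. Nr4a1, also called Nur77, which is widely used as a reporter of antigen receptor signalling, rose in NKG2A+ cells. Its levels ran from 715 through a median of 1005 to 1299 CPM in the 9 uneducated libraries and from 1015 through 1306 to 1810 CPM in the 9 NKG2A+ libraries. The groups overlapped, but 9 of 9 NKG2A+ libraries lay above the uneducated median and 6 of 9 uneducated libraries lay below all NKG2A+ libraries. From a mean of 999 ± 207 to one of 1359 ± 275 CPM (SD, n = 9 each), its log2 fold change came to 0.45 (SE 0.13, 95% interval 0.20 to 0.70) with an adjusted p of 0.0204 in the edgeR quasi-likelihood test with Benjamini-Hochberg adjustment over all 9339 genes tested. Nr4a1 was the only one of the 10 members that passed, or 1 of 10 against 15.0% of all genes tested. No member had groups that did not overlap, as 2.09% of genes had. With no filter on low counts its adjusted p became 0.0504 at a log2 fold change of 0.45, and 0 members passed.

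Junb came next, with 2039, 2909 and 3758 CPM (lowest, median, highest) in uneducated cells and 2603, 4174 and 4761 CPM in NKG2A+ cells, and 5 of 9 NKG2A+ libraries lay above every uneducated library. Its log2 fold change of 0.37 (SE 0.13) missed the threshold (adjusted p = 0.0578), and the adjusted p ran from 0.00271 to 0.111 over 29 alternatives. With offsets for GC content and length, which the study corrected for by its own method, the adjusted p was 0.0179 in the same test. It passed in 7 of the 18 fits that left out 1 library, namely uneducated 5, 6, 7 or 9 or NKG2A+ 2, 3 or 4, where its adjusted p went down to 0.024. Fos had a median of 287 CPM (203 to 510) in uneducated and 376 CPM (274 to 540) in NKG2A+ cells, with a log2 fold change of 0.31 (SE 0.16, adjusted p = 0.219). Egr2, at medians of 6.14 CPM (1.48 to 17.4) and 11.3 CPM (3.00 to 24.1), had the largest log2 fold change of the family, 0.81, but with an SE of 0.42 and an adjusted p of 0.211. The other NR4A receptors did not follow Nr4a1 at a level the test could show. Nr4a2 had medians of 868 and 923 CPM (log2 fold change 0.08, SE 0.14) and Nr4a3 of 132 and 123 CPM (log2 fold change −0.21, SE 0.25). The 9 members that did not pass had adjusted p-values of 0.0578 to 0.792, and the median log2 fold change of the 10 was 0.14, against 0.01 for all genes.

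The genes around the family were read from fixed lists. Of 34 tested genes among 36 other immediate early genes and their feedback regulators, 14 rose and 1 fell in NKG2A+ cells, with a median log2 fold change of 0.36, where 7.47% of all genes rose and 7.56% fell. Nfkbiz, a nuclear regulator of NF-κB targets, rose by 1.13 on the log2 scale (SE 0.16, adjusted p = 6.7e-05). Gadd45a, a stress and growth arrest gene, rose by 1.10 (SE 0.26, adjusted p = 0.0051), and Dusp1, a phosphatase that ends MAP kinase signals, rose by 0.61 (SE 0.12, adjusted p = 0.00118). Gadd45g, of the same family as Gadd45a, went the other way, with −0.98 (SE 0.18, adjusted p = 0.000562). Among 13 tested genes of 18 AP-1 and ATF partners, 3 rose (Maf by 1.73, Atf3 by 0.64 and Atf4 by 0.28) and 2 fell, namely Batf at −0.44 and Jdp2 at −0.42, both of which pair with Jun proteins. Among 28 tested kinases and factors that feed these promoters, Nfatc1 rose by 0.59 and Crem by 0.57, and Mef2c fell, at −1.01. Nab1, a corepressor that binds EGR proteins, rose by 0.29 (SE 0.08, adjusted p = 0.0215), as 1 of 2 tested genes of 4 in the EGR and NAB list.

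Some markers of other cells moved along with this comparison. Hbb-bs and Hbb-bt of the erythroid list were higher in NKG2A+ cells (log2 fold changes 1.03 and 1.01), with the 5 erythroid genes summing to 664 to 2546 CPM against 189 to 1252 CPM in uneducated cells. Cd3e and Cd3d were higher as well (1.84 and 1.19), while the 7 T cell genes together summed to 72.3 to 184 CPM against 41.7 to 153 CPM. Cd3g, the T cell gene of highest level, had a lower median in NKG2A+ than in uneducated cells (76.3 against 83.45 CPM). Cd4, Cd8a and Cd8b1 had medians of 0 CPM in both groups. Pecam1 and Epcam were lower, at −0.76 and −1.28, each the only gene of its list that passed the filter. The defining endothelial markers Cdh5, Emcn, Kdr and Tek had a median of 0 CPM in every group, and Krt8 and Krt18 of the epithelial list had higher medians in NKG2A+ than in uneducated cells (2.25 against 0.67 CPM and 3.38 against 1.74 CPM). The stroma list summed to 892 CPM in NKG2A+ library 4 and to a median of 7.24 CPM in that group. The part of these markers in the result for Nr4a1 was not tested. In bulk RNA, fewer cells of a type and less RNA in each cell cannot be told apart.

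**Figure D2:**
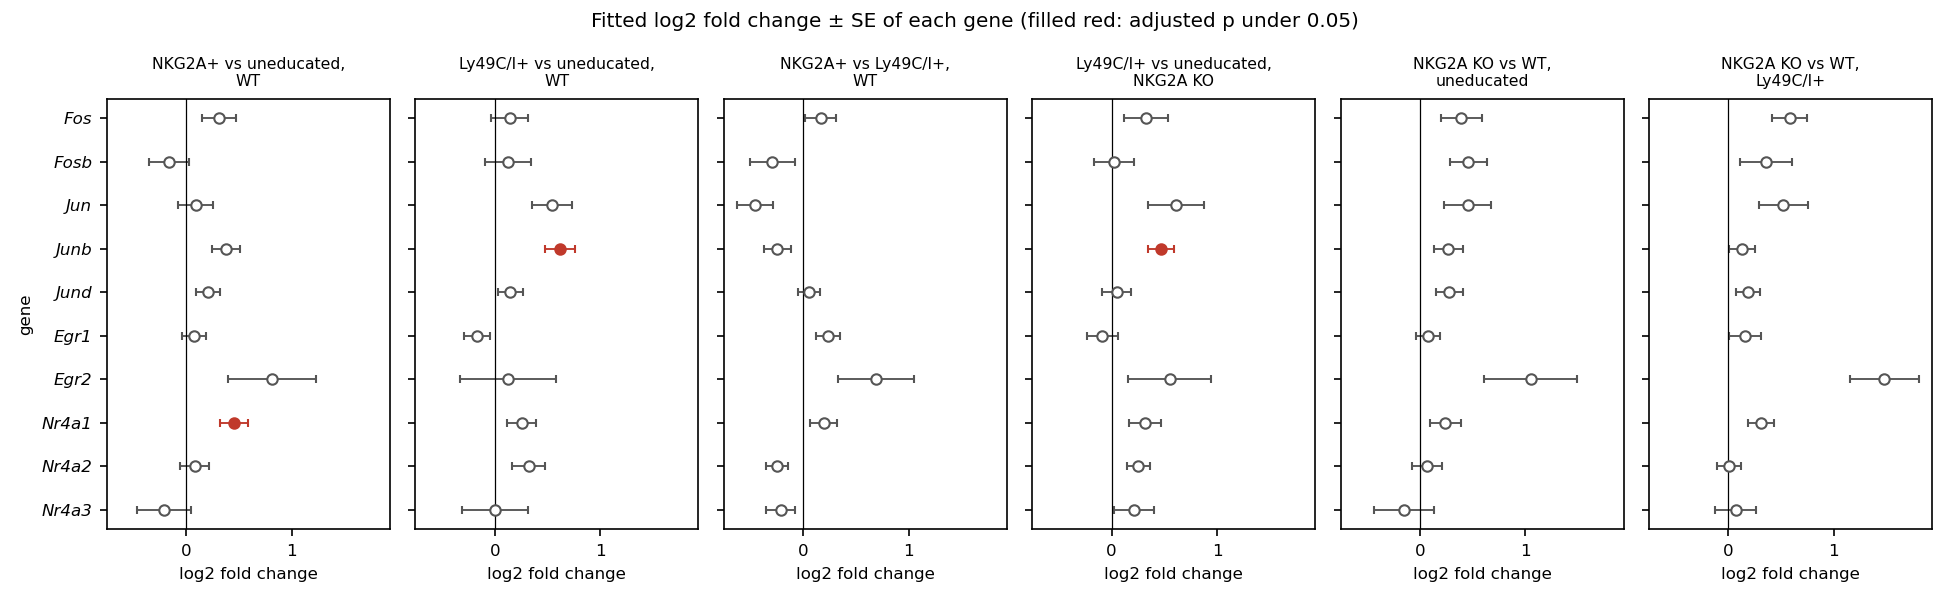
Log2 fold change of each of the 10 genes in 6 comparisons (points) with its SE (bars), from the edgeR quasi-likelihood fits, 1 panel for each comparison. Filled red points passed the adjusted threshold of 0.05. Nr4a1 passes for NKG2A+ against uneducated cells (0.45), and Junb for Ly49C/I+ against uneducated cells in WT (0.62) and in NKG2A KO mice (0.47).

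The second comparison set Ly49C/I+ against uneducated cells of WT mice, and used the same 9 uneducated libraries as the first. Here Junb rose. The 6 Ly49C/I+ libraries ran from 3856 through a median of 4164 to 6134 CPM, all above the highest uneducated library at 3758 CPM, a separation seen in 2.44% of the 9292 genes tested. Ly49C/I+ cells averaged 4594 ± 939 CPM (SD, n = 6) where uneducated cells averaged 2993 ± 644 CPM (SD, n = 9). The fitted log2 fold change was 0.62 (SE 0.14, 95% interval 0.34 to 0.90, adjusted p = 0.0118), and the adjusted p stayed at or under 0.0467 over 26 alternatives. Junb was 1 of 10 members to pass, against 9.20% of all genes, and 2 members had an unadjusted p under 0.05, against 24.6% of all genes.

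Jun, the gene of c-Jun, had 246, 299 and 571 CPM in uneducated and 424, 460 and 844 CPM in Ly49C/I+ cells, and 6 of 6 Ly49C/I+ libraries lay above the uneducated median. The log2 fold change of 0.54 (SE 0.19) had an adjusted p of 0.0825. Without uneducated library 5 or without uneducated library 6 Jun passed as well. Nr4a2 followed with medians of 868 and 1126 CPM, again with 6 of 6 libraries above the uneducated median, and a log2 fold change of 0.32 (SE 0.16, adjusted p = 0.214). Egr1, the best known EGR gene, had the lowest value of the family at −0.17 (SE 0.13), with 209 CPM against 227 CPM at the median. Nr4a1, with 1224 against 1005 CPM at the median, had a log2 fold change of 0.25 (SE 0.13, adjusted p = 0.252). Over the family the median log2 fold change was 0.14, with 8 of 10 above 0.

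Of the 34 tested other immediate early and feedback genes, 11 rose and 1 fell in WT Ly49C/I+ cells (median log2 fold change 0.40), where 4.50% of all genes rose and 4.70% fell. Spry2, an inhibitor of receptor tyrosine kinase signals, rose by 0.71 (SE 0.19, adjusted p = 0.0231), and Tnfaip3, the NF-κB inhibitor A20, rose by 0.64 (SE 0.11, adjusted p = 0.00234). Gadd45g fell here too, at −0.87 (SE 0.21, adjusted p = 0.0151). Of 12 tested AP-1 and ATF partners Mafk rose by 0.73 and Atf4 by 0.36, and Jdp2 fell, at −0.55. Nfatc2 rose by 0.76 and Mef2c fell, at −0.66, among the 28 tested input genes. The share of reads given to no gene was higher in these libraries, at 4.16% to 6.83%, than in the uneducated ones, at 2.90% to 4.47%. The erythroid sum was 785 to 2522 CPM (median 1117) against 189 to 1252 CPM (median 578). Epcam was lower, with a log2 fold change of −1.10 and no overlap (25.2 to 42.0 against 46.4 to 94.4 CPM), and so was Pecam1, at −0.68. The part of these measures in the results for Junb and Jun was not tested.

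Set directly against each other, NKG2A+ and Ly49C/I+ cells of WT mice showed no member that passed the edgeR quasi-likelihood test, or 0 of 10 against 2.73% of 9308 genes, of which 122 (1.31%) were higher and 132 (1.42%) lower in NKG2A+ cells. The groups overlapped for all 10 members, where 1.03% of genes had groups that did not. At an unadjusted p under 0.05 there were 2 members, in a comparison where 18.4% of all genes were under that limit. These were Jun, with a log2 fold change of −0.46 (SE 0.17, adjusted p = 0.154), and Nr4a2, with −0.25 (SE 0.10, adjusted p = 0.206), both lower in NKG2A+ cells. DESeq2 and the edgeR likelihood ratio test called 0 members too. For Nr4a1 the difference was 0.19 (95% interval −0.05 to 0.44) and for Junb −0.25 (−0.50 to 0.01), so the risen gene of either subset is not shown to differ between the subsets. Of the lists, Ier5l (−1.01, SE 0.18, adjusted p = 0.00513) and Fosl2, a Fos family gene (−0.40, SE 0.11, adjusted p = 0.0481), were lower in NKG2A+ cells.

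In NKG2A KO mice, Ly49C/I+ cells were compared with uneducated cells, in libraries that neither WT comparison used. Junb rose again. It stood at 5995, 5381, 4517, 4865 and 4412 CPM in Ly49C/I+ libraries 4 to 8, and ran from 2349 through a median of 3824 to 4789 CPM in the 8 uneducated libraries. The groups overlapped only through uneducated library 4, since the other 7 lay below every Ly49C/I+ library. Ly49C/I+ cells averaged 5034 ± 657 CPM (SD, n = 5) where uneducated cells averaged 3592 ± 736 CPM (SD, n = 8). The fitted log2 fold change was 0.47 (SE 0.13, 95% interval 0.22 to 0.72, adjusted p = 0.0186). Junb was 1 of 10 members that passed, against 16.3% of 9299 genes tested, and 3 members had an unadjusted p under 0.05, against 31.1% of genes. Groups did not overlap for 5.98% of genes and for 0 members. Without Ly49C/I+ library 4 the log2 fold change was 0.40 and the adjusted p 0.0638, so the call rested on that library, and with no filter on low counts the adjusted p was 0.0509.

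Jun had the largest fold change of the family here. Its Ly49C/I+ libraries 4 to 8 held 1210, 615, 856, 585 and 460 CPM, and its uneducated libraries 204, 415 and 912 CPM (lowest, median, highest). With a log2 fold change of 0.61 and an SE of 0.27 it did not pass (adjusted p = 0.127). Uneducated library 4 was the highest of its group for 6 of the 10 members, and without it Jun (0.80, adjusted p = 0.0245) and Nr4a1 (0.41, adjusted p = 0.0472) passed beside Junb. In that library 5.67% of reads were given to no gene, the most of its group. The interval of the difference between the Ly49C/I+ effects in KO and WT mice was −0.54 to 0.27 for Junb (log2 difference −0.14). By the edgeR quasi-likelihood test of that difference 0 of 9322 genes and 0 of 10 members passed, with 407 genes (4.37%) and 0 members at an unadjusted p under 0.05, and with 1 gene called by DESeq2 and 1 by the likelihood ratio test.

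Of 35 tested other immediate early and feedback genes, 11 rose and 2 fell in KO Ly49C/I+ cells (median log2 fold change 0.36), where 7.34% of all genes rose and 8.99% fell. Cd69, an early surface marker of lymphocyte activation, rose by 0.71 (SE 0.19, adjusted p = 0.0188), and Dusp1 rose by 0.68 (SE 0.19, adjusted p = 0.0227). Ier3, an early response gene linked to survival, fell, at −1.69 (SE 0.33, adjusted p = 0.00274), and Gadd45g at −0.55. Of the partners Mafk rose by 0.31 and Jdp2 fell, at −0.92, and of the inputs Creb1, Mef2a and Crem rose by 0.56, 0.47 and 0.45 while Mef2c fell, at −0.95. The median share of reads given to no gene was 4.12% in Ly49C/I+ and 3.33% in uneducated libraries. Epcam was lower here too (−1.31, with medians of 19.2 and 49.2 CPM), Pecam1 had medians of 175 and 216 CPM (−0.46, adjusted p = 0.0554), and the erythroid sum had medians of 762 and 591 CPM. The part of these measures in the results was not tested.

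The genotypes were then compared within each sorted group. NKG2A was itself a gate, so cells that it would have excluded in WT mice may lie inside both gates in KO mice. Genotype and the make-up of the gated cells cannot be told apart here. In uneducated cells, 0 of 9288 genes and so 0 of 10 members differed between KO and WT mice by the quasi-likelihood test, with 619 genes (6.66%) at an unadjusted p under 0.05 and 1 gene each called by DESeq2 and by the likelihood ratio test. The members nevertheless lay mostly on one side, with 9 of 10 log2 fold changes above 0 and a median of 0.27, against −0.01 for all genes. With offsets for GC content and length 7 of 10 were above 0, with a median of 0.14 against −0.05 for all genes. In the fit without offsets 3 members had an unadjusted p under 0.05, and all failed the adjustment. With offsets 1 member was under that limit, and without KO uneducated library 4 there were 0. Fosb ran from 26.9 through 37.6 to 73.1 CPM in WT and from 43.5 through 51.8 to 83.1 CPM in KO uneducated cells, and 8 of 9 WT libraries lay below all KO libraries (log2 fold change 0.46, SE 0.18, adjusted p = 0.639). Groups overlapped for all 10 members, and did not for 0.0323% of genes. Egr2 (1.05, SE 0.44, adjusted p = 0.72) and Jund (0.28, SE 0.13, adjusted p = 0.735) were the others.

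In Ly49C/I+ cells of KO against WT mice, 0 of 9344 genes passed, with 992 (10.6%) at an unadjusted p under 0.05, and 118 called by DESeq2 and 60 by the likelihood ratio test. All 10 members had a log2 fold change above 0 (median 0.25), against a median of −0.0015 for all genes. The lowest was Nr4a2 at 0.007. With a replicate block or with offsets for GC content and length 9 of 10 were above 0. With both there were 8, with a median of 0.14. Without KO Ly49C/I+ library 4 the median was 0.19. The members also vary together between libraries, so their signs are not separate observations. Egr2, a zinc finger factor known to restrain T cell activation, stood at 34.0, 11.0, 24.8, 22.3 and 17.2 CPM in KO libraries 4 to 8 and ran from 4.76 through 7.28 to 11.0 CPM in the 6 WT libraries. Thus 4 of 5 KO libraries lay above every WT library. Its log2 fold change was 1.48 (SE 0.33, 95% interval 0.83 to 2.13), with an adjusted p of 0.153 in the quasi-likelihood test and 0.0108 in the likelihood ratio test. Fos stood at 756, 408, 587, 471 and 429 CPM in KO libraries 4 to 8 and at 290, 341 and 458 CPM (lowest, median, highest) in WT, with a log2 fold change of 0.58 (SE 0.17, adjusted p = 0.247), and DESeq2 called it with an adjusted p of 0.026. The groups overlapped for all 10 members, and did not for 1.56% of genes. Jun (0.52) and Nr4a1 (0.31) also had an unadjusted p under 0.05. The heat shock gene Hspa1b, of the inducible Hsp70 kind, lay between 110 and 450 CPM in KO and between 30.1 and 108 CPM in WT Ly49C/I+ libraries, and its part in these values was not tested.

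The spread between libraries of a group was uneven within the family. Measured as the pooled SD of log2(CPM + 1) within groups, it was 0.78 for Egr2, larger than for 92.3% of genes, though Egr2 is also the member with the fewest reads. Nr4a3 followed with 0.49 (74.6% of genes below) and Jun with 0.47 (72.1%). Fosb had 0.41 and Fos 0.39, still above the 0.34 of the median gene. Nr4a1, Junb, Nr4a2, Egr1 and Jund had 0.30, 0.29, 0.28, 0.26 and 0.25, all under the median gene. So Jun and Fos varied more from library to library than Junb and Nr4a1, which passed the quasi-likelihood test in a comparison.

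Single libraries stood out. KO Ly49C/I+ library 4 was the highest of its group for 7 members (Fos, Fosb, Jun, Junb, Egr1, Egr2 and Nr4a1), and KO uneducated library 4 for 6 (Fosb, Jun, Junb, Egr1, Egr2 and Nr4a1). WT NKG2A+ library 5 was highest for 6 (Fos, Fosb, Jun, Egr1, Egr2 and Nr4a3) and WT uneducated library 5 for 5 (Fosb, Jund, Egr1, Nr4a2 and Nr4a3). Nr4a3 was at 423 CPM in WT uneducated library 5, where the next library of that group had 153 CPM. At the other end, KO Ly49C/I+ library 8 was lowest for 6 members and KO uneducated library 3 for 5. WT uneducated library 5 had a count on 13990 genes, the fewest of its group.

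**Figure D3:**
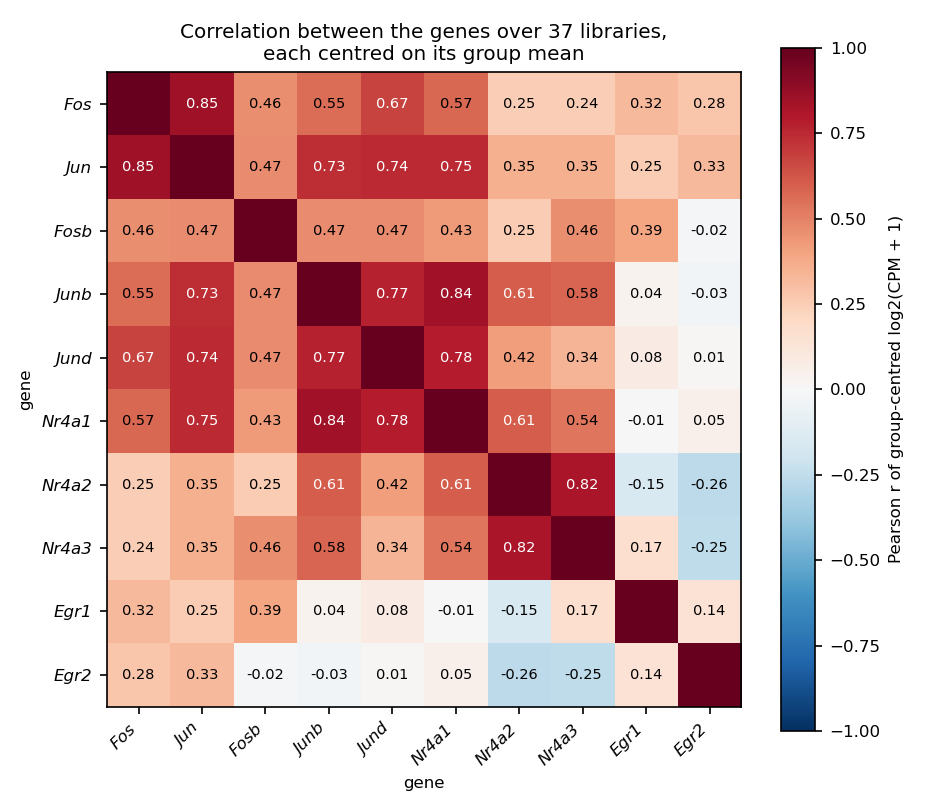
Pearson correlation between the 10 genes over 37 libraries, after the mean of its group was taken from each library's log2(CPM + 1). Colour and printed value give r. Pairs of AP-1 and NR4A genes are all above 0 (0.24 to 0.85), and those with Egr1 or Egr2 run from −0.26 to 0.39.

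Libraries that were high for a member tended to be high for others. With each group's mean removed, the 45 pairs of members had a median Pearson r of 0.39 over 37 libraries, as a description of libraries that also share depth and composition. A median for pairs of other genes is not given here, so these values are not shown to be particular to the family. Fos and Jun, partners in AP-1, reached 0.85, Junb and Nr4a1 reached 0.84, and Nr4a2 and Nr4a3 reached 0.82. The 28 pairs of AP-1 and NR4A genes ran from 0.24 to 0.85 with a median of 0.55. Egr1 and Egr2 stood aside, since the 17 pairs with either of them had a median of 0.05, and r between Egr1 and Egr2 was 0.14.

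The genes whose pattern was most like each member, out of 9277, were named by the same measure. Dusp1 (r = 0.83) led for Fos, before the chemokine gene Ccl3 (0.71) and Atf3 (0.70). Zfp36l2, which encodes a protein that destabilises mRNA, led for Jun (0.83), with Dusp1 (0.81) and Ppp1r15a (0.80). The immediate early gene Ier2 led for Junb (0.90) and Nr4a1 (0.87), and came for Jund (0.81) behind Gsdmd (0.84) and Arl4d (0.82). Fosl2 led for Nr4a3 (0.90) and was second for Nr4a2 (0.85) after Syne2 (0.85). Klf4 led for Fosb (0.66), Gadd45g for Egr1 (0.67) and Tug1 for Egr2 (0.66).

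Across lists, the 35 compared other immediate early and feedback genes had a median r of 0.54 with Junb, 0.52 with Nr4a1 and 0.45 with Jun, but 0.19 with Egr1 and 0.08 with Egr2. The 14 heat shock genes had medians near 0, from −0.07 (Junb) to 0.15 (Fosb). Single genes of that list stood well above its median, and were picked here for their values. Hspa1a had an r of 0.75 with Jun, and Dnajb1 one of 0.67 with Fos. Hspa1b had an r of 0.81 with Jund, 0.79 with Jun, 0.78 with Nr4a1, 0.71 with Junb and 0.68 with Fos. Between groups the heat shock list gave 1 higher and 3 lower genes in NKG2A+ cells, 0 and 3 in WT Ly49C/I+ cells, and 2 and 3 in KO Ly49C/I+ cells, each against uneducated cells, with Dnajb1 the higher one in NKG2A+ cells (0.47) and Hsp90ab1 lower in all 3 comparisons.

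Among measures of the libraries, reads on genes had an r between −0.14 and 0.08 with the members. The number of genes with a count went with Nr4a2 at −0.62 and Nr4a3 at −0.46, and with Egr2 at 0.37. The share of reads given to no gene went with Jun at 0.48, Nr4a3 at 0.44, Fosb at 0.39, Fos at 0.37 and Junb at 0.35. The part of these measures in the spread of the members was not tested.

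Libraries carry numbers, and uneducated and NKG2A+ cells of WT mice share 9 of them. Over these 9 pairs of equal number, Nr4a1 in uneducated cells went with Nr4a1 in NKG2A+ cells at r = 0.91 (Spearman rho 0.90, two-sided exact permutation p = 0.0015 and 0.0020). Its r was 0.88 without the 2 most distant pairs, meaning those whose uneducated level lay farthest from the uneducated median. Nr4a2 had r = 0.89 and rho 0.95 (exact permutation p = 0.0012 and 0.00035), with r = 0.91 without the 2 most distant pairs. Jun had r = 0.88 and rho 0.92 (exact permutation p = 0.0017 and 0.0013), with r = 0.76 without them. Adjusted over all 9339 genes these 3 gave 0.319 each from 100000 resamples, and 0 genes passed for either measure, with 597 genes (6.39%) at an unadjusted p under 0.05. With these resamples the smallest p is 1e-05, at which no single gene could pass alone, so the adjusted outcome decides little. The other members gave an r of 0.52 (Junb) to 0.72 (Jund), and Egr2 one of −0.14, where the median gene had 0.08. Without the 2 most distant pairs r went from 0.64 to 0.09 for Nr4a3, from 0.69 to 0.37 for Fosb, from 0.67 to 0.32 for Egr1 and from 0.69 to 0.48 for Fos. Leaving out extreme levels narrows the range, which can itself lower r, so what these relations rest on was not shown. With 6 pairs of uneducated and Ly49C/I+ libraries, Junb had r = 0.90 and rho 0.94 (exact permutation p = 0.0056 and 0.017, adjusted p = 0.400 for r), and r = 0.95 without the 2 most distant pairs, where the smallest p that the design allows is 0.0014 and the median gene had r = 0.17. After adjustment 0 genes passed in these 6 pairs, with 795 genes (8.56%) at an unadjusted p under 0.05. Here too no single gene could pass alone at the smallest p.

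**Figure D4:**
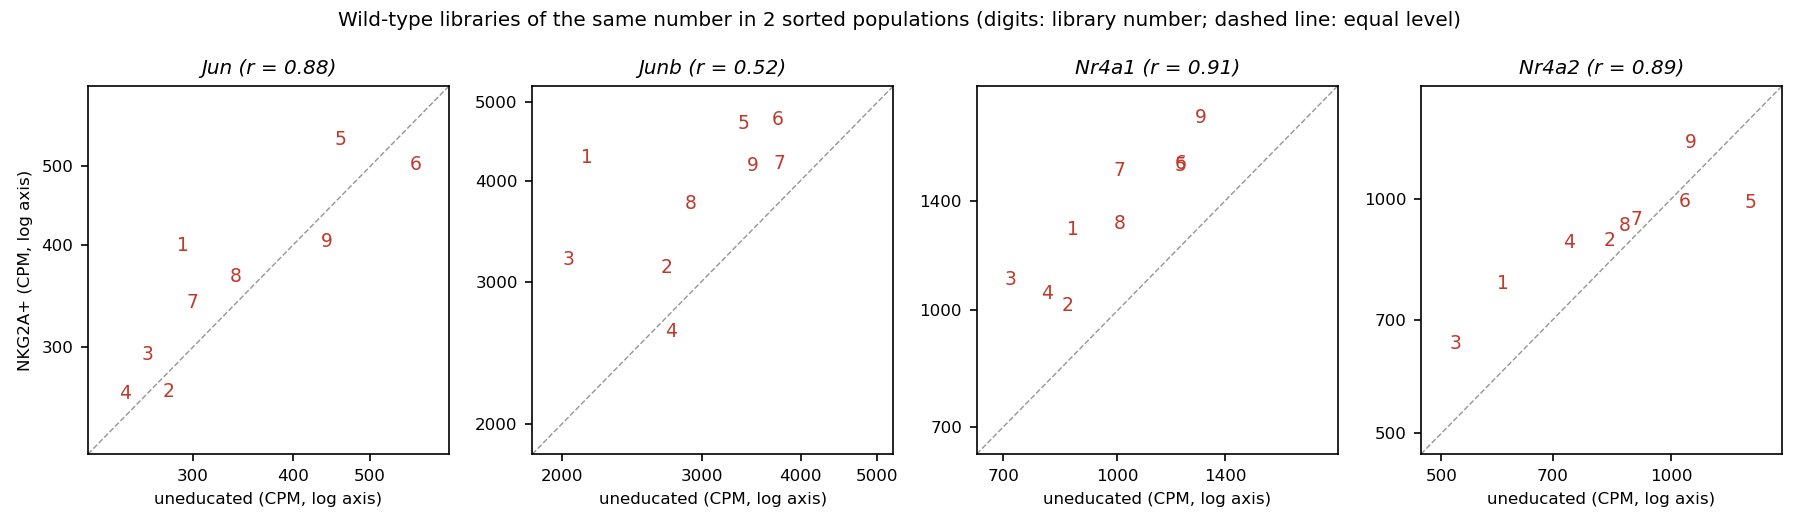
Level in the WT NKG2A+ library against that in the WT uneducated library of equal number, as CPM on log axes, for Jun, Junb, Nr4a1 and Nr4a2. Digits are library numbers (n = 9), the dashed line marks equal levels, and r is above each panel. Nr4a1, Nr4a2 and Jun rise together in both groups (0.91, 0.89 and 0.88), Junb less tightly (0.52), and for Nr4a1 all 9 numbers lie above the line.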

How the data were processed

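The authors sorted live CD45+ NKp46+ cells that, among other gates, lacked CD3, CD4 and CD8 and were not CD11b high, then split them by Ly49C/I and NKG2A. Libraries were made with SMART-Seq v4 and Nextera XT. Per the submitters' processing notes and the study's methods, reads were checked with FastQC 0.11.4, trimmed with Trim Galore 0.5.0 and mapped with STAR 2.7.1 to GRCm38, and the authors tested with edgeR 3.26.5 in R 3.6.1. The study's methods also name a correction for GC content and gene length with the CQN package, which the main fits here did not use. The authors deposited raw counts of reads per gene, 1 file for each library, without normalization. The sources used here name no counting program.

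Each deposited file also holds 5 summary lines, which entered neither library sizes nor tests (reads given to no gene were 2.69% to 6.83%, ambiguous reads 4.04% to 4.60% and reads without a unique position 11.3% to 13.8%). Symbols matched 52147 of 53700 identifiers. A gene was tested where 0.5 or more of the libraries in the comparison reached 5 CPM, by edgeR 4.0.16 in R 4.3.3 (TMM, quasi-likelihood test, Benjamini-Hochberg adjustment, threshold 0.05), with only the groups compared in a fit, and all 10 members passed this filter in every comparison. The scripts were tested on simulated data. Permutation tests were written with numpy 2.4.6, with ranks from scipy 1.17.1, and log2 values used a pseudocount of 1. Amplified reads are not independent molecules, so depth limits counting error only. Library numbers of WT Ly49C/I+ cells came from a label line that differs from their titles, and that line for WT uneducated library 5 repeats the line of library 4, so its title was used. For each member the 3 genes of highest correlation were named by rule, as were the list genes of largest called change. Dusp1 in NKG2A+ cells, Hspa1a, Hspa1b and Dnajb1 beside Fos were named after their values were seen. The members and lists were chosen with earlier results of these data known. Alternatives were other normalizations, tests, filters, offsets for GC content and length, a replicate block and leaving out each library.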

Additional observations from a re-analysis of the deposited data

Results flagged for a closer look

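In 5 of 50 groups of libraries (10 genes in 5 groups) the highest or lowest library lay far from the rest. The limit used gives about 1 in 20 for separate groups of normally distributed values. CPM were taken without logarithm and the same libraries recur over the genes, so an excess was not shown. Fosb was at 73.1 CPM in WT uneducated library 5 (next 43.4 CPM) and at 83.1 CPM in KO uneducated library 4 (next 59.7 CPM). Jun was at 844 CPM in WT Ly49C/I+ library 5 (next 484 CPM), and that library had the largest share of reads given to no gene, 6.83%. Nr4a3 was at 423 CPM in WT uneducated library 5 (next 153 CPM). Jund was at 140 CPM in KO Ly49C/I+ library 8, below the next at 201 CPM.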

How the results depend on the processing

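No fold change of the 21 that were called in any fit, or had an unadjusted p under 0.05 in the fits of the report, changed sign under any alternative run. These 21 were selected by their p-values in the same fits, so a kept sign was likely beforehand. Of the 49 others 24 did so under some alternative, none larger than 0.44 or more than 1.23 SE from 0. In NKG2A+ against uneducated cells of WT mice, where 1 member passed, 2 did under the likelihood ratio test, DESeq2, all groups in 1 fit and GC and length offsets (Junb added), and 0 did with no filter. For Ly49C/I+ against uneducated cells of WT mice, 2 passed under the likelihood ratio test and under DESeq2. In the KO comparison 0 passed with no filter, and for KO against WT Ly49C/I+ cells 1 passed under the likelihood ratio test and 1 under DESeq2. Leaving out each library gave 1 to 2 members for NKG2A+ cells, 1 to 2 for WT Ly49C/I+ cells and 0 to 3 for KO Ly49C/I+ cells, and 0 in the other comparisons.

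Counts of all genes called moved by over 1.5 times in several fits. The 855 of WT Ly49C/I+ cells became 451 with no filter and 1528 with all groups in 1 fit, and 466 to 1227 when a library was left out (539 without WT uneducated 3, 564 without WT Ly49C/I+ 5, 466 without WT Ly49C/I+ 7). The 254 between NKG2A+ and Ly49C/I+ cells became 442 under the likelihood ratio test, 558 under DESeq2, 104 with no filter, 124 with offsets and 147 to 306 without a library (168 without WT NKG2A+ 2, 163 without WT NKG2A+ 8, and 154, 155 and 147 without WT Ly49C/I+ 2, 5 and 7), and the share higher in NKG2A+ cells went from 48.0% to 36.3% with offsets and 59.6% with no filter. The 1519 of KO Ly49C/I+ cells became 889 with no filter and 967 to 1763 without a library (967 without KO Ly49C/I+ 4). For KO against WT Ly49C/I+ cells, 18 genes were called with all groups in 1 fit and 0 to 15 without a library (15 without WT Ly49C/I+ 1, 2 without KO Ly49C/I+ 8).

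Libraries of equal number were somewhat more alike than others. Over all genes outside the family the same-number correlation had medians of 0.099, 0.125, 0.083 and 0.042 (uneducated with NKG2A+, uneducated with Ly49C/I+, NKG2A+ with Ly49C/I+, and KO). For unequal numbers the medians were 0.004, −0.022, −0.011 and −0.0069, though a single unequal pair reached 0.263. Equal numbers exceeded 0.1 in 4 of 9, 4 of 6, 2 of 6 and 1 of 5 pairs, and 6, 5, 3 and 3 libraries were most like their own number. The correlations were small, and whether a number marks a shared mouse or sort was not tested. With a replicate block, 3 members were called in NKG2A+ cells (Fos, Junb, Nr4a1), 4 in WT Ly49C/I+ cells (Jun, Junb, Nr4a1, Nr4a2), 2 between the subsets (Jun, Nr4a2) and 2 in KO cells (Jun, Junb). A block on the 6 numbers shared by all WT groups called only Nr4a1 in NKG2A+ cells, with 695 genes in place of 1404, and a block on the numbers of the titles called only Junb in WT Ly49C/I+ cells, with 583 genes. Which numbering is right is not known. With the replicate block and offsets together these were 3, 4 (with Fos in place of Nr4a1), 0 and 3 (Nr4a2 added), and 132 genes were called between the subsets. The block gave 759 genes in KO cells, and 568 with offsets. The cause of these changes was not tested. Depth limits Egr2 most, with 1.48 CPM in its lowest library.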
